A study of Mus musculus with 115 samples.

Results

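Hearts of mice that lack the ADP/ATP carrier Ant1 and also carry the mitochondrial ND6 P25L change were compared with wild type hearts. The comparison used 3 knockout ND6 hearts with 16 sequencing libraries and 4 wild type hearts with 22 libraries, 38 libraries out of the 115 samples of the series. Members were chosen by labelled genotype, by labelled Gfp vector and by the title code NI, and the libraries with the same title number were added up to 1 heart. The knockout ND6 mice were Ant1-/- ND6P25L on the C57BL/6JEiJ strain, so that loss of a nuclear gene was combined with a change in mitochondrial DNA. The wild type mice were C57BL/6JEiJ. Both groups, the wild type included, had received 2.5e+11 vector genomes of AAV2/9Des-Gfp into the pericardium, an adeno-associated virus whose name gives the desmin (Des) promoter and a Gfp cargo. Hearts of 3 Ant1-/- mice without the ND6 change, given the same vector, were used as a second reference. The labels do not explain the title number or the codes NI and IN. Reading a number as 1 heart is therefore an interpretation, no label says that the hearts came from separate animals, and p-values measure the spread between these numbered samples. Several collection times after injection are named for the series without one for any heart, so time and group cannot be told apart.

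Ant1, encoded by Slc25a4, is the main adenine nucleotide translocator of heart and skeletal muscle and exchanges mitochondrial ATP for cytosolic ADP across the inner membrane. ND6 belongs to complex I of the respiratory chain, and mitochondrial DNA encodes it. When heart muscle is overloaded or short of energy it is known to raise natriuretic peptides and fetal muscle genes, and mitochondrial defects are known to raise the secreted hormone GDF15 through the integrated stress response.

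Each library was made with an amplicon panel that reads 1 short amplicon for each of 23930 transcripts. The 38 libraries held 4011052 to 8319248 counts each. Summed per heart, the totals were 31326034 to 33300658 counts in knockout ND6 hearts and 30559079 to 34760481 in wild type hearts. Levels are given as CPM, counts set relative to a library total that the TMM method scales. Wild type heart 70 lay apart from the other 6 hearts: its correlation of log2 CPM with them was 0.9575 to 0.9694, against 0.968 to 0.991 among the others. Its libraries and those of knockout ND6 heart 22 lie in the same deposited tables, while no other table holds hearts of both groups. Wild type heart 23 held the most liver transcript, and results are given without hearts 22, 23 or 70 where they rest on them. A called gene named below kept its call with any 1 of the 7 hearts left out unless the text says otherwise.

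**Figure D1:**
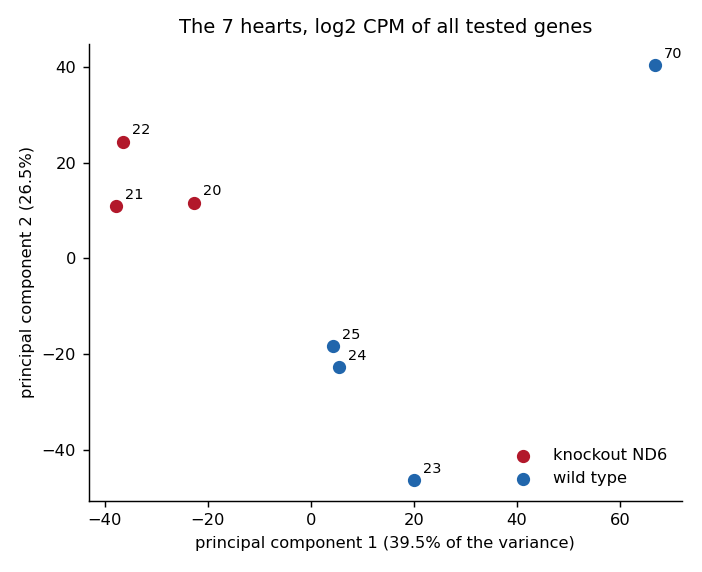
Position of the 3 knockout ND6 hearts and the 4 wild type hearts on the first 2 principal components of log2 CPM over all tested genes, with the share of variance on each axis and the heart number beside each point. The knockout ND6 hearts lie on the left, and wild type heart 70 lies alone at 66.77 on the first component and 40.49 on the second.

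Slc25a4 (Ant1) was close to absent in the knockout ND6 hearts. It stood at 0.363, 0.219 and 0.851 CPM in knockout ND6 hearts 20, 21 and 22, from 7 to 27 counts, and at 11256.4, 11380.4, 10467.1 and 8464.0 CPM in wild type hearts 23, 24, 25 and 70. The groups did not overlap, and the level fell by 14.4 on the log2 scale (SE 1.1, adjusted p = 1.08e-08). No source used here says whether the amplicon lies in the deleted part of the gene. Slc25a5, which encodes the second translocator Ant2, was not among the amplicons used here.

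Cell type markers of heart muscle were present in both groups. The summed level of the 10 cardiomyocyte markers was 93729, 104491 and 92559 CPM in knockout ND6 hearts and 93649, 90618, 85483 and 76919 CPM in wild type hearts, and 0 of the 10 passed the edgeR test (3 had an unadjusted p under 0.05, and DESeq2 called 1). Of the 12 endothelial markers 0 passed it, with 3 under an unadjusted p of 0.05 and 2 called by DESeq2. The Y-linked Ddx3y was read at 212.6 to 273.0 CPM in knockout ND6 hearts and 228.2 to 242.2 CPM in wild type hearts. In such bulk samples fewer cells of a type and less RNA per cell cannot be told apart.

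Of 15403 tested genes, 1954 or 12.7% differed between knockout ND6 and wild type hearts at an adjusted p under 0.05 in edgeR's quasi-likelihood test with Benjamini-Hochberg adjustment. Of all tested genes, 6.71% were called higher and 5.97% lower in the knockout ND6 hearts, which is 1034 and 920 genes. Most differences were modest: the median fold of a called gene was 1.48, and 217 genes were at least 2-fold higher and 270 at least 2-fold lower. The hearts of the 2 groups did not overlap for 4056 of the 15403 tested genes and for 1813 of the 1954 called genes. With heart 22 left out 999 genes were called, 604 higher and 395 lower, and with heart 25 left out 1706 were called. Without hearts 22 and 70, the pair that shares tables, 857 genes were called. Of 855 of these genes, 811 or 94.9% had the same sign in heart 22 over heart 70, a pair that this fit did not use, against 69.5% of 15169 tested genes. Their median log2 size was 0.69 in that fit, and their median change in heart 22 over heart 70, signed by it, was 0.65.

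**Figure D2:**
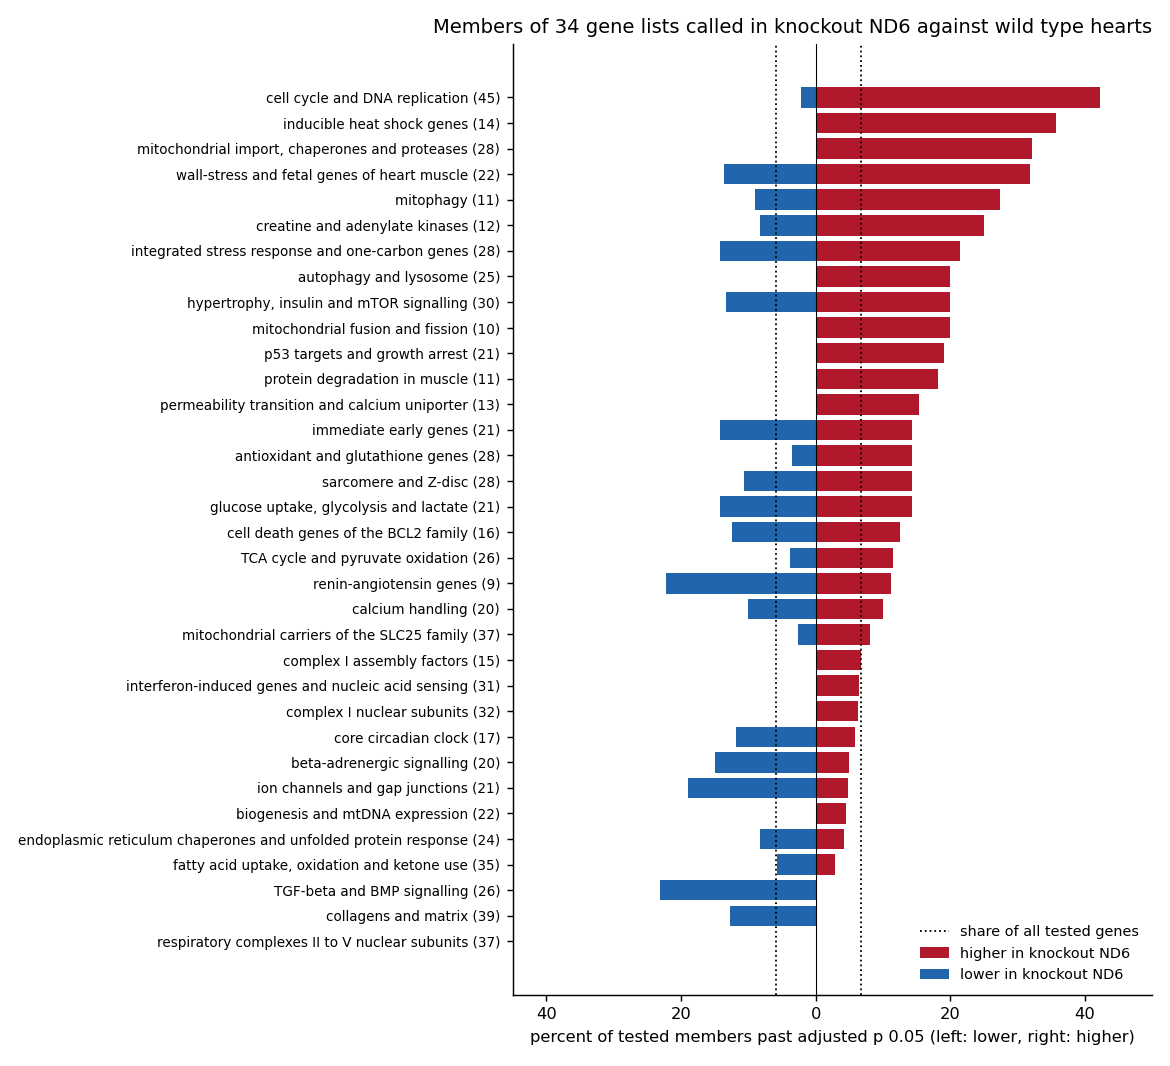
Share of tested members of 34 gene lists called in knockout ND6 against wild type hearts, in percent, with higher members to the right and lower members to the left. Dotted lines mark the shares over all tested genes, 6.71% higher and 5.97% lower, and the number of tested members follows each name. The cell cycle list has the widest bar to the right, and no member of respiratory complexes II to V was called.

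Genes that heart muscle raises under wall stress were among the clearest rises in knockout ND6 hearts. Of 22 tested members of the wall-stress and fetal list, 7 were higher and 3 lower, against 6.71% higher and 5.97% lower over all tested genes, and the median log2 change was 0.06. With 1 heart left out 5 to 7 were higher and 2 to 3 lower. The list thus split, with large changes in a few members and little in the rest.

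Nppb, which encodes brain natriuretic peptide, was at 1919.3, 1772.6 and 2227.4 CPM in knockout ND6 hearts and at 627.6, 596.9, 389.3 and 327.8 CPM in wild type hearts. It rose by 2.02 on the log2 scale (SE 0.27, adjusted p = 3.6e-05), without overlap. Ankrd1, a stretch-responsive repressor protein of muscle nuclei and Z-discs, was at 3867.0, 3617.7 and 4402.9 CPM in knockout ND6 hearts and at 1172.3, 1309.5, 1597.5 and 865.6 CPM in wild type hearts, a log2 rise of 1.68 (SE 0.17, adjusted p = 8.88e-07). All knockout ND6 hearts lay above all wild type hearts for both genes. In the pair of hearts from shared tables, heart 22 over heart 70, the log2 difference was 2.76 for Nppb and 2.35 for Ankrd1.

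Acta1, the skeletal alpha-actin that the fetal heart expresses, varied more among knockout ND6 hearts. It was at 575.8, 346.7 and 983.4 CPM in knockout ND6 hearts and at 90.8, 158.2, 133.3 and 177.3 CPM in wild type hearts, a log2 rise of 2.18 (SE 0.29, adjusted p = 3.85e-05). Its gene lies on chromosome 8, as Slc25a4 does. Cryab, a small heat shock protein that binds desmin filaments, rose by 0.54 (log2, adjusted p = 0.000433), and the low-level stretch gene Ankrd2 rose by 1.34 (adjusted p = 0.00375) to 3.34 to 5.26 CPM, against 0.99 to 2.47 CPM in wild type hearts.

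Not every member of the list moved this way. Nppa, which encodes atrial natriuretic peptide and is usually raised with Nppb, was at 3697.5, 3867.1 and 3660.5 CPM in knockout ND6 hearts and at 3612.7, 4802.0, 2994.6 and 3817.6 CPM in wild type hearts. Its log2 difference was -0.02 (SE 0.24, adjusted p = 0.964), and the groups overlapped fully. Fhl2, a LIM protein of the Z-disc that restrains hypertrophic signalling, was at 1152.3, 1187.5 and 1091.9 CPM in knockout ND6 hearts and at 2376.7, 2118.1, 2104.1 and 1663.9 CPM in wild type hearts, and fell by 0.85 on the log2 scale (SE 0.11, adjusted p = 3.97e-05). No amplicon for the fetal myosin Myh7 was among those used here.

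**Figure D3:**
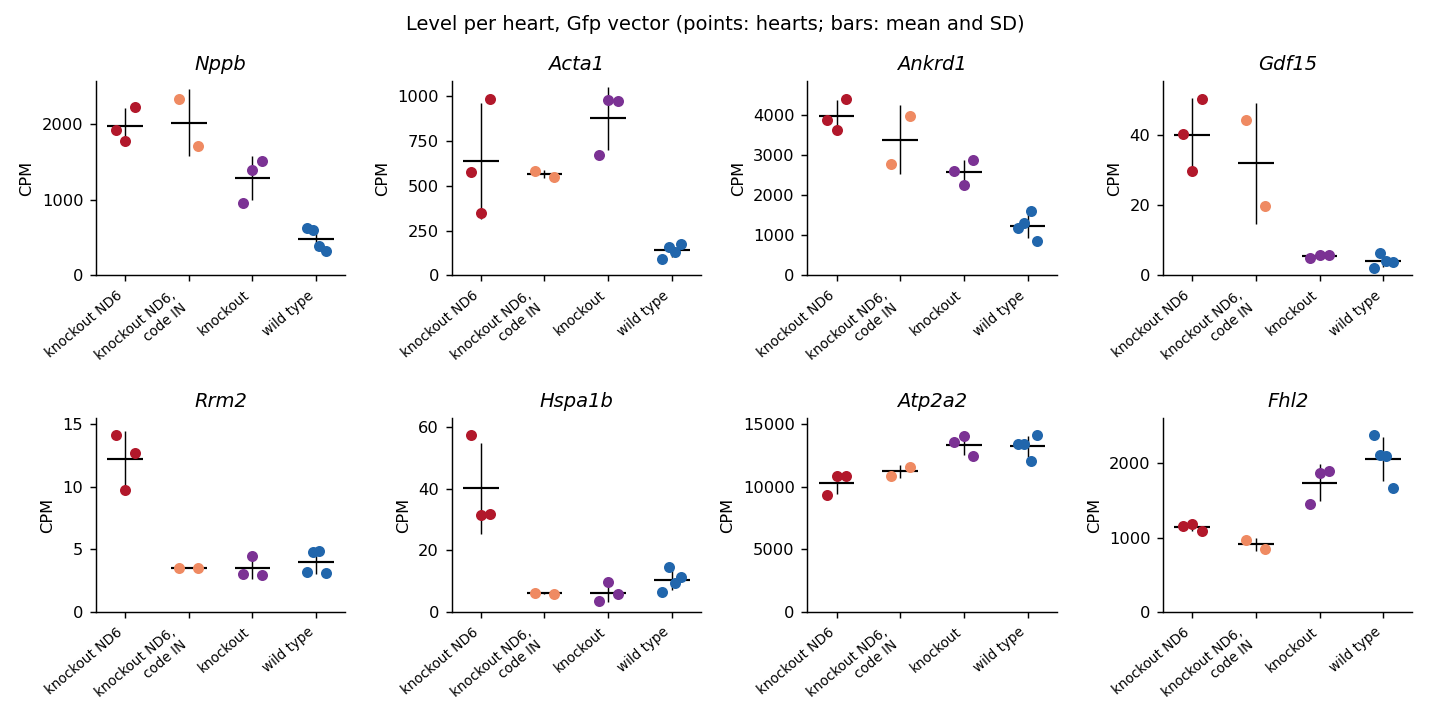
Level in CPM of 8 genes in each heart of 4 groups given the Gfp vector, with points for hearts and bars for the mean and SD. Groups run from knockout ND6 and knockout ND6 with title code IN through knockout to wild type. Nppb, Ankrd1, Acta1 and Gdf15 lie higher and Atp2a2 and Fhl2 lower in all 3 knockout ND6 hearts than in every wild type heart, and Rrm2 and Hspa1b are raised in the 3 knockout ND6 hearts coded NI.

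The promoter windows of the 3 largest rises of this list are printed because each holds the MCAT letters CATTCC, the core that TEAD factors bind in muscle genes, which read GGAATG on the other strand. The windows run from 250 bases before to 50 after the gene start, in the RefSeq annotation of GRCm38.p6, 5′ to 3′ on the gene's strand, with MCAT matches in capitals. Nppb lies at chr4:147985650-147985949 on the plus strand, Acta1 at chr8:123894726-123895025 on the minus strand and Ankrd1 at chr19:36119795-36120094 on the minus strand.
Nppb: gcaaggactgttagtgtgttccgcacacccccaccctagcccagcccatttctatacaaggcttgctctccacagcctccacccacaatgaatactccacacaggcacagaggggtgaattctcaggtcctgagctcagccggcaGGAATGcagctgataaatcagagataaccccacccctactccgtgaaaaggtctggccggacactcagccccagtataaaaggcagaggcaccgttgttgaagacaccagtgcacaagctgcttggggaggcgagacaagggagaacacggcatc
Acta1: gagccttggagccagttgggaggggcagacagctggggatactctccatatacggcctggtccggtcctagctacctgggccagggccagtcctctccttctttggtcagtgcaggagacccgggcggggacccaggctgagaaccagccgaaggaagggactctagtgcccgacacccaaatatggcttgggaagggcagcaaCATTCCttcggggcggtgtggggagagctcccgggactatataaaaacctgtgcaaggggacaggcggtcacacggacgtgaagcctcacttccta
Ankrd1: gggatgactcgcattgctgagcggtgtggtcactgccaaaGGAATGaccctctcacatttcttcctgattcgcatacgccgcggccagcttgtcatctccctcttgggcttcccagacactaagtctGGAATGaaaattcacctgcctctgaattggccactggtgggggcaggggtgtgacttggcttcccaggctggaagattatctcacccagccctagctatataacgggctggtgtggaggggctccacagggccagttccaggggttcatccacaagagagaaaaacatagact
The match begins 105 bases before the start in Nppb and 46 bases before it in Acta1, and Ankrd1 has 2 matches, 210 and 123 bases before it. Over 32851 promoter windows of 300 bases, 14.7% held the letters on either strand. Windows were found for 5 of the 7 higher members, and 3 held a match. Among members that were not called, 4 of the 10 with a window held one, and none of the 3 lower members did.

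The contractile apparatus showed scattered rises and falls. Of 28 tested sarcomere and Z-disc genes 4 (14.3%) were higher and 3 (10.7%) lower, against 6.71% and 5.97% over all tested genes. Their median log2 change was 0.15. Mybpc3, the myosin-binding protein C of heart muscle, was at 3653.0, 4578.0 and 4507.2 CPM in knockout ND6 hearts and at 2591.1, 2791.7, 2106.8 and 2139.4 CPM in wild type hearts, a log2 rise of 0.82 (adjusted p = 0.000532). Des, the intermediate filament desmin, rose by 0.33 (adjusted p = 0.00322), and Lmod3, which nucleates thin filaments, by 0.55 (adjusted p = 0.00386).

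Tpm1, the tropomyosin of the thin filament, was at 3829.1, 3996.8 and 3740.0 CPM in knockout ND6 hearts and at 6106.5, 6308.3, 6089.0 and 4221.9 CPM in wild type hearts. It fell by 0.56 on the log2 scale (adjusted p = 0.0015), with heart 70 the lowest wild type heart and still above the knockout ND6 hearts. Mylk3, the kinase of ventricular myosin light chain, fell by 0.52 (adjusted p = 0.00288).

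Of 20 tested calcium handling genes 2 were higher and 2 lower, against 6.71% higher and 5.97% lower over all tested genes, and without heart 21, 22 or 70 only 1 was higher. Atp2a2, the SERCA pump that refills the sarcoplasmic reticulum, was at 9312.0, 10828.9 and 10824.8 CPM in knockout ND6 hearts and at 13368.6, 13382.2, 12062.0 and 14088.1 CPM in wild type hearts. Its log2 fall of 0.36 (SE 0.075, adjusted p = 0.00317) left no overlap. Casq1, the calsequestrin of fast skeletal muscle, was at 1.54, 1.72 and 1.86 CPM in knockout ND6 hearts and at 8.73 to 18.2 CPM in wild type hearts, a log2 fall of 2.86 (adjusted p = 2.69e-06). S100a1, a calcium sensor that enhances the pump and the ryanodine receptor, rose to 985.9 to 1041.8 CPM in knockout ND6 hearts, against 549.3 to 659.5 CPM in wild type hearts (log2 0.77, adjusted p = 3.19e-05).

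Ion channel and adrenergic genes included both higher and lower members. Of 21 tested channel and gap junction genes 1 was higher and 4 lower, against 5.97% lower over all tested genes, with a median log2 change of -0.22, and without heart 20, 22 or 70 only 2 were lower. Scn4b, an accessory sodium channel subunit, was at 198.3, 192.8 and 195.3 CPM in knockout ND6 hearts and at 60.0, 73.8, 94.6 and 46.9 CPM in wild type hearts, a log2 rise of 1.51 (SE 0.16, adjusted p = 2.72e-06). Kcnj2, the inward rectifier potassium channel that sets the resting potential, fell to 16.9 to 20.8 CPM in knockout ND6 hearts, against 31.7 to 48.8 CPM in wild type hearts (log2 -0.93, adjusted p = 0.00271). The T-type calcium channel gene Cacna1g fell by 1.15 (log2, adjusted p = 0.0015).

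Among 20 beta-adrenergic and related genes 1 was higher and 3 lower, against 6.71% higher and 5.97% lower over all tested genes. Without heart 21, 22, 23, 24 or 70 only 1 was lower. The alpha-1B adrenoceptor gene Adra1b stood at 30.1, 37.4 and 31.0 CPM in knockout ND6 hearts and at 72.1, 61.4, 52.5 and 60.0 CPM in wild type hearts, a log2 fall of 0.91 (adjusted p = 0.00213). Prkar1a, a regulatory subunit of protein kinase A, rose by 0.47 (adjusted p = 0.000216).

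The mitochondrial stress hormone Gdf15 was strongly raised. It was at 40.2, 29.7 and 50.4 CPM in knockout ND6 hearts and at 2.0, 6.39, 4.23 and 3.87 CPM in wild type hearts. The log2 rise was 3.28 (SE 0.45, adjusted p = 5.34e-05), the lowest knockout ND6 heart lay well above the highest wild type heart, and heart 22 over heart 70 gave 3.7. Fgf21, the other secreted hormone of this response, was under the count filter, with 0.0 to 0.189 CPM in knockout ND6 hearts and 0.0309 to 0.323 CPM in wild type hearts.

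The rest of the integrated stress response and one-carbon list did not move as 1 group. Of 28 tested genes 6 (21.4%) were higher and 4 (14.3%) lower, against 6.71% and 5.97% over all tested genes. Their median log2 change was 0.07. Without heart 20 or 21 only 3 were higher, and without heart 21 or 22 only 1 was lower. Ddit3, the stress transcription factor CHOP, rose to 84.0 to 102.5 CPM in knockout ND6 hearts, against 32.9 to 65.3 CPM in wild type hearts (log2 0.87, adjusted p = 0.00799), and Aldh18a1, an enzyme of proline synthesis, rose by 0.58 (adjusted p = 0.00308). The amino acid transporter gene Slc7a1 fell to 20.8 to 28.9 CPM in knockout ND6 hearts, against 43.3 to 51.1 CPM in wild type hearts (log2 -0.9, adjusted p = 4.64e-05). The stress factor Atf3 passed the test (log2 1.31, adjusted p = 0.0308) with overlapping groups, at 43.5, 43.2 and 27.6 CPM in knockout ND6 hearts and 8.34, 9.19, 7.79 and 36.2 CPM in wild type hearts, the last of them heart 70. Its adjusted p was 1.2e-05 without heart 70 and up to 0.108 with another heart left out, and heart 22 over heart 70 gave -0.39.

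Inducible heat shock genes were higher as far as they changed. Of 14 tested, 5 (35.7%) were higher, against 6.71% over all tested genes, and 0 lower (0 lower also at an unadjusted p under 0.05 and in DESeq2). Their median log2 change was 0.33, and 3 to 7 were higher with 1 heart left out, fewest without heart 21 or 22. Without hearts 22 and 70 only 2 were higher, and also only 2 without hearts 23 and 70. Hspa1b, the stress-inducible HSP70 chaperone, was at 57.2, 31.4 and 31.8 CPM in knockout ND6 hearts and at 6.43, 14.5, 9.49 and 11.4 CPM in wild type hearts, a log2 rise of 1.94 (SE 0.31, adjusted p = 0.000252) without overlap. Its near-identical neighbour Hspa1a was higher by 1.47 (adjusted p = 0.0167, but 0.127 without heart 20), and reads of the pair could have been split between them. The HSP110 relative Hspa4l rose by 0.68 (adjusted p = 0.000285).

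The Hspa1b window is printed for its heat shock element letters. It lies at chr17:34959189-34959488 on the minus strand of RefSeq GRCm38.p6, written as above, with the match to GAANNTTC, a motif that reads alike on both strands, in capitals.
Hspa1b: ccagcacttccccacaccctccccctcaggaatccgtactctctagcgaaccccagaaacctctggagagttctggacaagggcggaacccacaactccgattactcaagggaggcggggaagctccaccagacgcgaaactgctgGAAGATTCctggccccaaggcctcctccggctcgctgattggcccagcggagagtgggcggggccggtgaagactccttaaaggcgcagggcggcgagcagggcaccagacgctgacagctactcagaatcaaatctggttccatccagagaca
The match begins 104 bases before the start, and 7.86% of all windows held one. Of the 5 higher members 3 held a match, as did 3 of the 7 members with a window that were not called.

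Cell cycle and DNA replication genes formed the list with the largest share of rises. Of 45 tested genes 19 were higher and 1 was lower, with a median log2 change of 0.58, against 6.71% higher over all genes. With 1 heart left out 15 to 20 were higher, and without hearts 22 and 70 there were 12.

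Rrm2, the ribonucleotide reductase subunit that supplies deoxynucleotides for replication, was at 14.1, 9.72 and 12.7 CPM in knockout ND6 hearts and at 3.19, 4.82, 4.91 and 3.12 CPM in wild type hearts. It rose by 1.6 on the log2 scale (SE 0.19, adjusted p = 7.74e-06). Mcm2, a subunit of the replicative helicase, was at 15.3, 9.94 and 10.7 CPM in knockout ND6 hearts and at 4.67, 5.0, 4.64 and 5.41 CPM in wild type hearts, a rise of 1.28 (SE 0.15, adjusted p = 7.18e-06). The groups did not overlap for either gene, and in heart 22 over heart 70 the differences were 2.02 for Rrm2 and 0.99 for Mcm2.

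Cdk1, the kinase that drives entry into mitosis, was at 6.35, 5.69 and 5.52 CPM in knockout ND6 hearts and at 1.16, 3.06, 2.0 and 1.55 CPM in wild type hearts, a log2 rise of 1.59 (SE 0.24, adjusted p = 0.000165). Ccnd2, the D-type cyclin of the G1 phase, was at 153.1 to 185.5 CPM in knockout ND6 hearts and 80.7 to 99.7 CPM in wild type hearts, a rise of 0.89 (adjusted p = 1.13e-05). The other members called higher were the replication and G1/S genes Ccnd1, E2f1, Ccne1, E2f8, Cdt1 and Mcm5 and the mitotic genes Ube2c, Cdc20, Ccna2, Top2a, Kif20a, Aurka, Prc1, Ccnb2 and Mki67. Of these, Cdt1, Mcm5, Prc1, Ccnb2 and Mki67 lost the call without heart 20, 22, 23 or 24. Cenpf, a kinetochore protein gene, went the other way, at 2.33, 4.72 and 2.84 CPM in knockout ND6 hearts and 18.7 to 42.4 CPM in wild type hearts (log2 -3.12, adjusted p = 1.09e-07).

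Promoter windows of Cdk1 and Mcm2 are printed for the cell cycle motifs they hold. Cdk1 lies at chr10:69352863-69353162 and Mcm2 at chr6:88898731-88899030, both on the minus strand of RefSeq GRCm38.p6. Capitals mark the CHR letters TTTGAA, the CCAAT box (ATTGG on the other strand) and the E2F letters TTTCGCGC, 1 of 4 E2F spellings searched beside TTTGGCGC, TTCCCGCC and TTTCCCGC, all on both strands.
Cdk1: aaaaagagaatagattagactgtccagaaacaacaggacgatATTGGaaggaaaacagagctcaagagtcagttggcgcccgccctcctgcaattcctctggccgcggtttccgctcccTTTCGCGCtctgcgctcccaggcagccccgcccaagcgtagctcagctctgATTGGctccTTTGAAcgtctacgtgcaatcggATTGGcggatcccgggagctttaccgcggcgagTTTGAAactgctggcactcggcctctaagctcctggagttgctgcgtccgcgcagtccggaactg
Mcm2: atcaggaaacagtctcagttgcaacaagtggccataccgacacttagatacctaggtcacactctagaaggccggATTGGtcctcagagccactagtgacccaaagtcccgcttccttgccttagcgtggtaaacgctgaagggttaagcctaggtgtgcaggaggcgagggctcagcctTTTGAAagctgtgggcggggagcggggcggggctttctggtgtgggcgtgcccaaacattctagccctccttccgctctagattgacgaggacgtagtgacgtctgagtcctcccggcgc
Over all windows 17.9% held the CHR letters, 37.4% a CCAAT box and 3.49% an E2F spelling. Windows were found for 15 of the 19 higher members, of which 10 held the CHR letters, 12 a CCAAT box, 10 both and 3 an E2F spelling. Of 20 members with a window that were not called, 7 held the CHR letters, 13 a CCAAT box and 7 an E2F spelling.

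Genes of the p53 and growth arrest list rose in part. Of 21 tested genes 4 (19.0%) were higher in edgeR, against 6.71% over all tested genes. In edgeR 0 were lower, with 1 lower at an unadjusted p under 0.05 and 0 in DESeq2. Tigar, which lowers glycolytic flux, was at 90.4 to 106.7 CPM in knockout ND6 hearts and 57.0 to 66.1 CPM in wild type hearts (log2 0.62, adjusted p = 0.000179). The nuclease gene Aen rose by 0.64 (adjusted p = 0.000661) and the growth arrest gene Gadd45g by 0.76 (adjusted p = 0.00549).

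**Figure D4:**
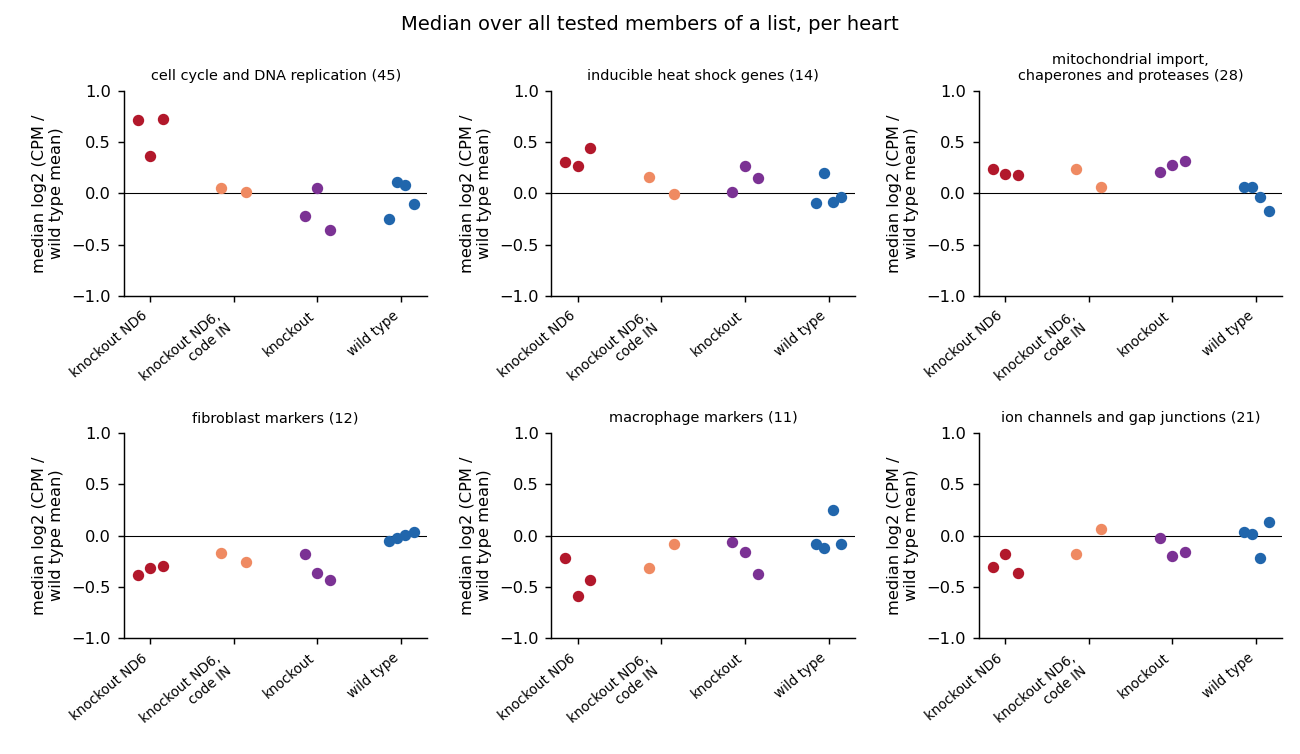
Median over the tested members of 6 lists of the log2 ratio of CPM to the wild type mean, for each heart of the 4 groups given the Gfp vector, with the number of members in brackets. The cell cycle medians are 0.72, 0.37 and 0.73 in knockout ND6 hearts and lie between -0.36 and 0.11 in the other groups, and the fibroblast medians are lower in all knockout ND6 hearts than in the wild type hearts.

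Few genes of the respiratory chain itself passed the test. Of 37 tested nuclear subunits of complexes II to V 0 passed the test in edgeR or in DESeq2, 4 had an unadjusted p under 0.05, and their median log2 change was 0.02. Of 32 complex I subunits 2 or 6.25% were higher, against 6.71% over all tested genes, and 0 without heart 20, 21 or 70. The median of the 32 was 0.11. Of 15 complex I assembly factors 1 was higher, and 0 without heart 21. Nnt, the nicotinamide nucleotide transhydrogenase that some C57BL/6 strains lack, was read at 579.2 to 730.6 CPM in knockout ND6 hearts and 628.0 to 704.0 CPM in wild type hearts.

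Mitochondrial import and quality control genes were higher where they passed the test. Of 28 tested import, chaperone and protease genes 0 were lower (2 lower at an unadjusted p under 0.05, 0 in DESeq2), with a median log2 change of 0.21. Higher were 9 or 32.1%, against 6.71% over all tested genes. The count was 3 without heart 22 and 1 without hearts 22 and 70. Grpel1, the nucleotide exchange factor of mitochondrial HSP70, was at 190.4, 192.8 and 194.9 CPM in knockout ND6 hearts and at 129.4, 138.1, 143.1 and 115.1 CPM in wild type hearts, a log2 rise of 0.55 (adjusted p = 0.000106). Afg3l2, a subunit of the inner membrane AAA protease, rose by 0.47 (adjusted p = 0.00363).

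Of 11 mitophagy genes 3 (27.3%) were higher and 1 (9.09%) lower, against 6.71% and 5.97% over all tested genes. Optn, an autophagy receptor for ubiquitin-marked mitochondria, was at 256.0, 274.0 and 238.1 CPM in knockout ND6 hearts and at 102.0, 114.2, 144.1 and 88.8 CPM in wild type hearts, a log2 rise of 1.19 (SE 0.15, adjusted p = 1.52e-05) without overlap. The receptor gene Sqstm1 (p62) rose by 0.52 (adjusted p = 0.00198). Bnip3, a hypoxia-induced mitophagy receptor, fell to 98.5 to 105.9 CPM in knockout ND6 hearts, against 142.9 to 171.9 CPM in wild type hearts (log2 -0.63, adjusted p = 0.0061).

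Other carriers and regulators of mitochondria held few calls, a share near or below that over all tested genes. Of 37 tested SLC25 carriers 3 (8.11%) were higher and 1 (2.7%) lower, against 6.71% and 5.97% over all tested genes. The lower one was not called without heart 20, 21, 24 or 70. Among the higher ones was Slc25a13, an aspartate/glutamate carrier, at 139.1 to 168.2 CPM in knockout ND6 hearts and 108.3 to 116.8 CPM in wild type hearts (log2 0.43, adjusted p = 0.00107). Of 22 biogenesis and mitochondrial DNA expression genes 1 was higher, the mitochondrial RNA polymerase gene Polrmt (log2 0.66, adjusted p = 0.0024).

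Fuel and energy transfer genes changed at single steps. Pdhx, a structural component of the pyruvate dehydrogenase complex, was at 160.4, 168.8 and 168.2 CPM in knockout ND6 hearts and at 92.2, 98.8, 109.3 and 89.3 CPM in wild type hearts, a log2 rise of 0.77 (adjusted p = 0.000236), and its partner subunit gene Pdhb rose by 0.43 (adjusted p = 0.00233). They were among 3 higher (11.5%) and 1 lower (3.85%) of 26 tested TCA cycle and pyruvate dehydrogenase genes. Over all tested genes 6.71% were higher and 5.97% lower. The 1 lower gene of these 26 was not called without heart 20, 21, 22, 23 or 24. Of 35 genes of fatty acid and ketone use 1 (2.86%) was higher and 2 (5.71%) were lower, with a median log2 change of -0.14. Without heart 70, 2 were higher and 5 lower, and without heart 20 or 22 the count of lower genes was 0.

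Ckm, the muscle creatine kinase that buffers ATP, was at 718.0, 701.4 and 794.9 CPM in knockout ND6 hearts and at 473.3, 458.2, 473.0 and 482.6 CPM in wild type hearts, a log2 rise of 0.65 (adjusted p = 0.000108). The creatine transporter gene Slc6a8 rose by 0.57 (adjusted p = 0.000507). In the list of 12 that holds both, 3 (25.0%) were higher and 1 (8.33%) lower, against 6.71% and 5.97% over all tested genes. The lower one was not called without heart 21, 22, 23, 24 or 70. Glycolysis genes split, with 3 of 21 higher and 3 lower, 14.3% each way. Without heart 20 it was 1 in each direction. Pgam2, the muscle phosphoglycerate mutase, rose by 0.45 (adjusted p = 0.00369), and Ldha, the lactate dehydrogenase subunit favoured in anaerobic tissue, fell by 0.44 on the log2 scale (adjusted p = 0.00474).

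Growth signalling genes moved in both directions, with 6 of 30 hypertrophy, insulin and mTOR genes higher and 4 lower. That is 20.0% and 13.3%, against 6.71% and 5.97% over all tested genes. With heart 20 or 22 left out 3 were higher, and with heart 20 left out 2 were lower. Mtor, the kinase that couples nutrients to growth, was at 56.7 to 62.2 CPM in knockout ND6 hearts and 35.3 to 45.8 CPM in wild type hearts (log2 0.61, adjusted p = 0.000118). The cardiac transcription factor gene Gata4 rose by 0.62 (adjusted p = 0.00121) and the kinase gene Akt1 by 0.46 (adjusted p = 0.00226). The insulin receptor substrate gene Irs1 fell by 0.5 on the log2 scale (adjusted p = 0.00533), and Foxo1, a transcription factor that insulin signalling inhibits, fell by 0.4 (adjusted p = 0.00651).

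Of 25 autophagy and lysosome genes 5 (20.0%) were higher, against 6.71% over all tested genes, and 0 lower (1 lower at an unadjusted p under 0.05, 0 in DESeq2). Without heart 21, 22 or 23 it was 2 higher. The phagophore protein gene Wipi1 was at 115.0 to 135.9 CPM in knockout ND6 hearts and 86.7 to 95.5 CPM in wild type hearts (log2 0.42, adjusted p = 0.00207). Bcl2, the survival gene of the outer mitochondrial membrane, was at 25.3, 22.0 and 23.0 CPM in knockout ND6 hearts and 11.1 to 14.0 CPM in wild type hearts (log2 0.9, adjusted p = 0.00781). Its cell death list of 16 held 2 higher and 2 lower genes, 12.5% each way, against 6.71% and 5.97% over all tested genes. With 1 heart left out 1 to 2 were higher, and 0 to 2 lower, with 0 lower without heart 20, 21, 22 or 70.

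The widest changes had another character: genes that were close to absent in 1 group. Calr, which encodes the calcium-binding chaperone calreticulin of the endoplasmic reticulum, was at 2.6, 2.72 and 2.96 CPM in knockout ND6 hearts and at 555.7, 492.1, 496.5 and 519.5 CPM in wild type hearts, a log2 fall of 7.54 (SE 0.2, adjusted p = 6.91e-17). Ubxn8, an endoplasmic reticulum protein gene, was at 0.0 to 0.0907 CPM in knockout ND6 hearts and 11.2 to 12.3 CPM in wild type hearts, and Zswim4, a zinc finger gene, was at 0.121 to 0.284 CPM in knockout ND6 hearts and 13.3 to 24.4 CPM in wild type hearts. Sycp1, a meiotic synaptonemal complex gene on chromosome 3, went the other way, at 21.2, 22.4 and 20.1 CPM in knockout ND6 hearts and at 0.0 to 0.119 CPM in wild type hearts, with a fitted log2 rise of 8.07 (adjusted p = 1.38e-15).

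These genes stood in the same place in the Ant1 knockout hearts without the ND6 change, where Calr was at 2.52, 3.61 and 2.78 CPM and Sycp1 at 17.6, 18.3 and 15.9 CPM. Ptgds, which encodes prostaglandin D synthase and was well expressed in all groups, was also raised in both knockout groups, at 2029.1, 2126.0 and 1860.8 CPM in knockout ND6 hearts, 2369.3 to 2499.5 CPM in knockout hearts and 688.1 to 912.6 CPM in wild type hearts (knockout ND6 over wild type log2 1.33, adjusted p = 1.12e-08). Each gene is read by 1 amplicon, so a changed sequence under it and a changed amount of RNA cannot be told apart.

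Calr, Ubxn8, Zswim4, Gdf15 and Acta1 share chromosome 8 with Slc25a4, which lies at chr8:46206797-46211284 on the minus strand of mm10. Of 778 tested genes on chromosome 8, 151 or 19.4% were called, against 9.96% to 17.1% on the other autosomes and the X chromosome. In 10 Mb windows the share was 42.4% of 33 genes from 30 to 40 Mb, 36.4% of 44 genes from 40 to 50 Mb, which holds Slc25a4, and 31.5% of 89 genes from 80 to 90 Mb, which holds Calr. Between the last 2 of these windows the share was 7.69% of 13 genes from 50 to 60 Mb, 8.33% of 36 from 60 to 70 Mb and 18.9% of 111 from 70 to 80 Mb, and it was 23.7% of 59 genes from 90 to 100 Mb. Loss of Ant1 and other sequence carried with the knockout allele cannot be told apart in this design.

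**Figure D5:**
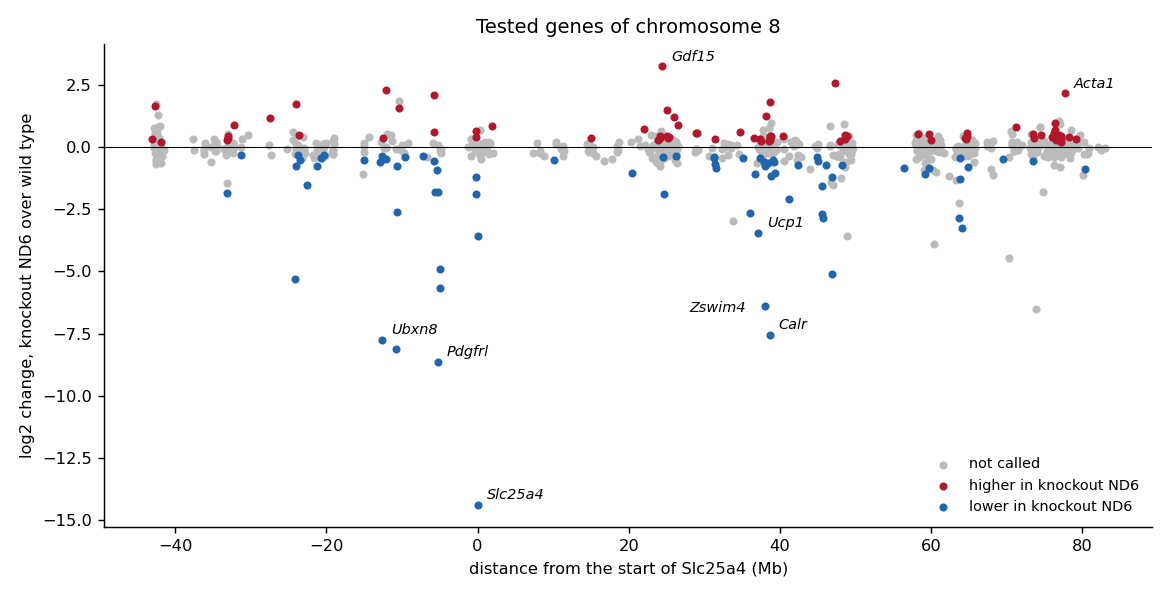
Log2 change in knockout ND6 over wild type hearts for each tested gene of chromosome 8 against its distance from the start of Slc25a4 in Mb, with called genes in red where higher and blue where lower. Slc25a4 itself lies at the bottom at -14.4, other deep falls lie on both sides of it, and most genes stay near 0.

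Genes of fibroblasts and their matrix were lower where they changed. Of 12 fibroblast markers 4 were lower and 0 higher (0 higher also at an unadjusted p under 0.05 and in DESeq2), against 5.97% lower over all genes, with a median log2 change of -0.24, and 3 to 4 were lower with 1 heart left out. Their summed level was 2556, 2562 and 2360 CPM in knockout ND6 hearts and 3071, 3228, 3145 and 3231 CPM in wild type hearts, without overlap. Gsn, the actin-severing protein gelsolin, was at 730.2, 752.5 and 703.1 CPM in knockout ND6 hearts and at 1005.0, 1108.2, 979.6 and 1090.3 CPM in wild type hearts (log2 -0.52, adjusted p = 5.7e-05). Dpt, the matrix protein dermatopontin, fell by 0.61 (adjusted p = 0.00044) and the intermediate filament gene Vim by 0.46 (adjusted p = 0.00452).

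Of 39 collagen and matrix genes 5 (12.8%) were lower, against 5.97% over all tested genes, and 0 higher (1 higher at an unadjusted p under 0.05 and 1 in DESeq2). Without heart 20 only 1 was lower. Col14a1, a fibril-associated collagen, was at 9.82 to 11.2 CPM in knockout ND6 hearts and 15.8 to 21.0 CPM in wild type hearts (log2 -0.79, adjusted p = 0.00574). Of 26 TGF-beta and BMP genes 6 (23.1%) were lower and 0 higher (2 higher at an unadjusted p under 0.05 and 1 in DESeq2), with 2 lower without heart 22 or 70. The receptor gene Tgfbr1 fell by 0.52 (adjusted p = 0.00227) and the co-receptor gene Tgfbr3 by 0.72 (adjusted p = 0.00227). For both receptors wild type heart 70 was the highest, and the calls held without it. The fibroblast marker level moved with these genes, and its part in their change was not tested.

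Of 11 tested macrophage markers 4 or 36.4% were lower, against 5.97% over all tested genes, with a median log2 change of -0.37. Without heart 22 none was called, while the median without hearts 22 and 70 was again -0.37. The summed level of all 12 macrophage markers with an amplicon was 186, 169 and 155 CPM in knockout ND6 hearts. It was 220, 240, 311 and 271 CPM in wild type hearts, without overlap. The complement gene C1qb was lower by a log2 value of -0.72 (adjusted p = 0.0114), and by -0.61 without heart 22, where its adjusted p was 0.0791.

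Liver transcripts differed through the wild type hearts. The summed level of the 8 liver genes with an amplicon was 4.29, 7.32 and 5.11 CPM in knockout ND6 hearts. It was 302.6, 25.8, 21.0 and 3.03 CPM in wild type hearts 23, 24, 25 and 70. Of these genes 6 passed the count filter and were tested, and 5 of the 6 (83.3%) were called lower, against 5.97% over all tested genes. Albumin (Alb) was at 0.393, 0.688 and 0.631 CPM in knockout ND6 hearts and at 159.1, 12.6, 10.8 and 0.248 CPM in wild type hearts, so wild type heart 70 lay below all of them. Without heart 20, 22 or 23 only 2 of the 6 were called, and the log2 change of Alb was -6.32 (adjusted p = 0.00331), or -3.79 without heart 23. The mesothelial marker gene Krt19 passed the test (adjusted p = 0.0273), but not without heart 70, where it was 0.186, nor without heart 20, 21 or 22, where it was 0.0831 to 0.0949.

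To see which differences went beyond those of Ant1 loss alone, the knockout ND6 hearts were set against the 3 Ant1 knockout hearts in the same fit. Here 163 genes or 1.06% of those tested were called, 83 of them (0.539%) higher and 80 (0.519%) lower in the knockout ND6 hearts. With 1 knockout ND6 heart left out the count was 46 to 79, lowest without heart 20. With 1 wild type heart left out, which this contrast does not compare, it was 151 to 223. The Ant1 knockout hearts were not left out in turn. The 2 comparisons share the knockout ND6 hearts, so their values are given side by side.

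Gdf15 was at 4.97, 5.75 and 5.88 CPM in the Ant1 knockout hearts and rose by 2.86 over them (adjusted p = 0.00563), beside 3.28 over wild type. Nppb was at 961.8, 1396.9 and 1512.1 CPM and Ankrd1 at 2595.4, 2250.4 and 2876.0 CPM in the Ant1 knockout hearts, and the differences of 0.61 and 0.62 did not pass the test (adjusted p = 0.33 and 0.0957). Acta1 was at 672.6, 978.9 and 971.6 CPM in the Ant1 knockout hearts, and its difference of -0.46 did not pass it either (adjusted p = 0.546). Ankrd2 stood higher in the Ant1 knockout hearts, at 10.1 to 13.3 CPM, and was lower in knockout ND6 hearts by 1.51 (log2 -1.51, adjusted p = 0.0105).

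The cell cycle list was raised against the Ant1 knockout hearts as well, with 12 of 45 genes higher, 0 lower (0 also at an unadjusted p under 0.05) and a median log2 difference of 0.64. Rrm2 rose by 1.8 (adjusted p = 0.000183), Cdk1 by 1.84 (adjusted p = 0.00183) and Mcm2 by 1.06 (adjusted p = 0.00229) over the Ant1 knockout hearts, and Hspa1b rose by 2.66 (adjusted p = 0.000967). Atp2a2, at 12438.4 to 14006.2 CPM in the Ant1 knockout hearts, was lower in knockout ND6 hearts by a log2 value of -0.37 (adjusted p = 0.0221), and Fhl2 by -0.6 (adjusted p = 0.0145). Leaving out heart 20 ended the call of Atp2a2 (adjusted p = 0.142), leaving out heart 20 or 22 that of Fhl2 (0.0741 and 0.0886), and leaving out heart 21 or 22 that of Ankrd2 (0.0612 and 0.0831). Most mitochondrial, fuel and fibroblast genes named above, such as Optn (0.18, adjusted p = 0.667), Grpel1 (-0.07, adjusted p = 0.773), Pdhx (0.0, adjusted p = 0.998) and Gsn (0.22, adjusted p = 0.181), did not pass this test.

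A further pair of hearts, numbers 61 and 91, carry the same genotype and Gfp vector labels but the title code IN that the hearts given the Ant1 vector have. They entered neither group. Their Slc25a4 level was 169.1 and 151.3 CPM, above the 0.219 to 0.851 CPM of the knockout ND6 hearts coded NI. They were close to those hearts for Nppb, at 2331.2 and 1702.9 CPM, and for Gdf15, at 44.2 and 19.8 CPM. They were close to the wild type hearts for Rrm2, at 3.55 and 3.55 CPM, for Cdk1, at 2.23 and 2.01 CPM, and for Hspa1b, at 6.25 and 6.04 CPM.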

How the data were processed

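RNA of whole hearts was read with an AmpliSeq mouse transcriptome panel on an Ion Torrent instrument, per the labels' protocols. The authors deposited raw read counts per amplicon in 14 tables of 8 libraries each, with genome build mm10 per the submitters' processing notes. Aligner, counting software and filters were not given in the sources used here. Library totals ran from 2893780 to 8531273 counts over the 110 libraries that the labels put in a group. For 27 amplicons a date-like entry was changed back to its gene symbol. Single-nucleus data (3 samples) were not used here.

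Counts of the libraries with the same title number, genotype and code were summed to 1 heart. All 22 hearts, in 7 groups, entered a single edgeR 4.0.16 quasi-likelihood fit in R 4.3.3, with TMM scaling (factors 0.961 to 1.058 in the compared hearts), edgeR's count filter and Benjamini-Hochberg adjustment over 15403 genes. The common biological coefficient of variation was 15.9%. CPM were computed from the deposited counts with TMM-scaled totals, and log2 changes from the fit. On simulated counts of this comparison over 15081 genes, 200 genes with enough expected counts were changed. Of these, 52.2% of genes changed 1.5-fold, 91% of those changed 2-fold and 100% of those changed 4-fold were recovered, with 8 false calls. Low genes were not among the changed ones. No outlying heart and no difference between tables was simulated, so neither share nor false calls cover these.

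Named genes were the 12 largest rises and falls of at least 5 CPM and the 8 largest gains and losses in CPM, each called and without overlap, up to 5 members of each list by adjusted p, and a fixed set, of which the text gives a part. Ankrd2 and the 15 cell cycle genes listed without values lie outside this rule and were named after their values were seen. The hearts compared, the 48 gene lists and the tests were chosen with earlier results of these data known. Gene positions came from GENCODE for the same build, and promoter windows from RefSeq. The alternatives were other size factors, no count filter, the compared groups alone, each heart left out, pairs of hearts left out, fewer libraries, hearts 61 and 91 added, Xist as a covariate, a block for the tables that hold hearts 22 and 70, DESeq2 1.42.0, and limma voom 3.58.1 on single libraries with the table as covariate.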

Additional observations from a re-analysis of the deposited data

Results flagged for a closer look

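For 8 of 87 named genes 1 wild type heart lay far from the other 3, where chance alone flags about 1 in 20 groups. Wild type heart 70 stood apart for 5 of them, with the highest wild type level of Atf3 (36.2 CPM), Krt19 (20.3 CPM), Tgfbr1 (21.8 CPM) and Tgfbr3 (139.7 CPM) and the lowest of Tpm1 (4221.9 CPM). Wild type heart 23 was highest for Alb (159.1 CPM) and Kcnj2 (48.8 CPM), and wild type heart 24 was lowest for Ddx3y (228.2 CPM). Groups of 3 hearts were not examined this way.

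Slc25a4 was read at 169.1 CPM in heart 61 and at 151.3 CPM in heart 91, which the labels give as Ant1 knockout with ND6 and the Gfp vector, with the title code IN. These values lie outside the compared groups and far above the 0.851 CPM of the highest knockout ND6 heart coded NI, and below the 8464.0 CPM of the lowest wild type heart. Whether these hearts received the labelled vector was not tested.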

How the results depend on the processing

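The count of 1954 genes called against wild type was 999 to 1706 with each of the 7 hearts left out. It was 857 without hearts 22 and 70, 988 without hearts 23 and 70 (an alternative chosen after seeing the data), 2992 with hearts 61 and 91 added and 3105 with the library table as covariate. That last fit, on single libraries, had a within-heart correlation of 0.203 and counted repeat libraries largely as separate units. Against the Ant1 knockout hearts 1.06% of tested genes were called. With each of the 7 knockout ND6 and wild type hearts left out it was 0.299% to 1.46%. The lowest share was without knockout ND6 heart 20 and the highest without wild type heart 70. The Ant1 knockout hearts were not left out in turn. The share was 0.402% without hearts 22 and 70, 0.739% with libraries a and b only, 4.2% with hearts 61 and 91 added, 3.52% in DESeq2 and 15.2% with the table as covariate, each of the genes that setting tested. With hearts in the tables of hearts 22 and 70 as a block, also chosen after seeing the data, the counts were 2043 and 159. Other size factors, no count filter, the compared groups alone and Xist as a covariate kept the first count between 1489 and 2085, and DESeq2 gave 2289. For the named genes over the 18 alternatives, 1492 kept the result, 91 lost the call, 0 gained one and 1 reversed: Atf3, at -0.04 on the log2 scale with the table as covariate. The causes were not tested. No paired analysis was possible because the compared groups share no replicate numbers; the block above rests on tables alone. Depth limits the low genes, with Slc25a4 at 7 to 27 counts in knockout ND6 hearts.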

Other observations

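Further gene groups of the knockout ND6 hearts also held called members, where 12.7% of all tested genes were called. Of 28 antioxidant and glutathione genes 4 were higher and 1 lower than in wild type, and of 24 endoplasmic reticulum chaperone and unfolded protein response genes 1 was higher and 2 were lower, 1 of these being Calr. Of 31 interferon-induced and nucleic acid sensing genes 2 were higher. Of 21 immediate early genes 3 were higher and 3 lower, of 17 clock genes 1 higher and 2 lower, and of 9 renin-angiotensin genes 1 higher and 2 lower. Of 10 fusion and fission genes, 13 permeability transition genes and 11 protein degradation genes 2 each were higher. Most of these counts changed with 1 heart left out: the higher calls fell to 0 for the interferon and the fusion and fission genes without knockout ND6 heart 21, to 0 for the permeability transition genes without knockout ND6 heart 22, and to 2 for the antioxidant genes without any 1 of hearts 21, 22, 23 and 24. Each other count given here reached 0 or 1 with some heart left out.

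Over all tested genes 6.71% were called higher and 5.97% lower. Among markers of other cell types, 2 of 10 adipocyte genes and 1 of 9 mesothelial genes were lower, and 1 of 9 smooth muscle genes was higher and 1 lower. Without knockout ND6 heart 21, or without heart 22, none of these lower calls was made. Of 9 skeletal muscle genes 2 were higher, Acta1 and Ckm, with each heart left out in turn as well, and 1 was lower, which was not called without heart 20, 21, 22 or 23. Markers of atrial muscle (10), lymphocytes (9), red blood cells (5) and nerve (9) and the sex-linked genes (4) had 0 calls in edgeR. At an unadjusted p under 0.05 they had 3, 1, 1, 2 and 0, and in DESeq2 1, 0, 0, 0 and 0. Summed mesothelial markers were 56.7, 54.4 and 57.9 CPM in knockout ND6 hearts and 61.7, 68.3, 63.3 and 156.6 CPM in wild type hearts, and summed nerve markers 26.4, 24.6 and 21.7 CPM in knockout ND6 hearts and 27.8, 26.9, 24.1 and 66.6 CPM in wild type hearts, with heart 70 highest in both.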
